A study of Mus musculus with 4 samples.

Results

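Rab GTPases and SNARE proteins are the machinery that labels membrane compartments and fuses vesicles with them, and on these arrays they were picked by gene symbol. The members are all probe sets whose only symbol in the platform annotation begins with Rab, Stx, Vamp or Snap directly followed by a number, without Rab27a, which the choice left out. These are 221 of 45037 probe sets and 97 of 18193 named genes. The letters also caught genes that are neither a Rab GTPase nor a SNARE. They are 10 genes named after a Rab that their protein binds or regulates, 3 transcripts of the opposite strand of a Rab or Rab-named gene, and Snap91, which encodes a clathrin assembly protein. Without these 14 genes, 83 genes and 190 probe sets remained, of which 58 genes encode Rab GTPases, 14 syntaxins, 7 VAMP proteins and 4 proteins of the SNAP-25 type.

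Each of 4 T-cell samples (CD25+ and CD4+) was read on 1 Affymetrix mouse genome array, with 2 samples in the IL-10+ and 2 in the IL-10− group, and the mice were C57Bl/6 of 6 to 12 weeks. All mice had received the CD28 superagonist D665 (CD28SA), an antibody that activates regulatory T-cells without a further T-cell receptor ligand. CD4+CD25+ lymph node cells taken 3 days later spent a night in culture with antibodies to CD3 at 2 and to CD28 at 5 µg/ml. Human IL-2 was present at 200 U/ml, and the cells were then sorted by IL-10 staining. Both groups share this treatment, so no resting cells are among the samples, and the sort used CD25 and not Foxp3. Whether the samples of a group stem from different mice or sorts is not stated. The p-values therefore cover no more than the spread among these 4 samples, possibly a technical one. Values are variance stabilized and read here as log2, but the base is not settled, since legends of the study give array differences as natural logarithms. Differences, p-values and calls do not depend on the base, whereas folds do. Differences are IL-10+ minus IL-10−, and "rose" and "fell" are used of a probe set whose adjusted p in limma, over all 45037 probe sets, was under 0.05. Where a gene has several probe sets, the one with the highest mean value, its brightest, stands for it.

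A Rab switches between a GTP-bound form, which sits on a membrane and recruits tethers and motors, and a GDP-bound form, which is carried in the cytosol. Exchange factors load GTP onto it and GTPase-activating proteins (GAPs) end the signal. SNAREs on a vesicle (VAMPs) and on its target membrane (syntaxins and SNAP-25-like proteins) zip into 1 bundle that fuses the membranes. In T-cells the same steps carry newly made cytokines from the endoplasmic reticulum (ER) through the Golgi to the surface, return receptors to the synapse and release lytic granules.

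Paralogs of 1 Rab moved apart on these arrays, and Rab1 and Rab5 are shown with their promoters because Rab1a and Rab1b rose together while Rab5a, Rab5b and Rab5c did not move as 1. Promoter sequences of 79 of the 97 member genes were held in the RefSeq table of GRCm38.p6. The 250 bases before the transcription start are given 5′ to 3′ on the strand of the gene, with GC boxes (GGGCGG on either strand) in capitals. They lie at chr11:20201162-20201411 (plus strand) for Rab1a, chr19:5106997-5107246 (minus) for Rab1b, chr17:53478984-53479233 (plus) for Rab5a, chr10:128696269-128696518 (minus) for Rab5b and chr11:100738216-100738465 (minus) for Rab5c.
Rab1a: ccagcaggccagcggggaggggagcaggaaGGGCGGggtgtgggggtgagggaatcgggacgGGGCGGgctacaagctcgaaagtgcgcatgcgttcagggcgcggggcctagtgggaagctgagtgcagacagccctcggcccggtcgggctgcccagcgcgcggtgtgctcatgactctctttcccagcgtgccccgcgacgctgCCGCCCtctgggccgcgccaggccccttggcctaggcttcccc
Rab1b: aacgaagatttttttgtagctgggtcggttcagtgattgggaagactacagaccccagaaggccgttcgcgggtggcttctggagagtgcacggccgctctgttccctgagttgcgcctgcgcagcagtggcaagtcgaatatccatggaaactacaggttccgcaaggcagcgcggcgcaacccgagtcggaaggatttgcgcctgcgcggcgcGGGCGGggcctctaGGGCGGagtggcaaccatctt
Rab5a: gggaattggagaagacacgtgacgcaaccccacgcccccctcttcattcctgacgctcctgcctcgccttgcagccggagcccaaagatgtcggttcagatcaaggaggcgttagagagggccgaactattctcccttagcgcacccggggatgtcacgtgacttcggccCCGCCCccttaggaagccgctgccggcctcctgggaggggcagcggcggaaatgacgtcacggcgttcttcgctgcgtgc
Rab5b: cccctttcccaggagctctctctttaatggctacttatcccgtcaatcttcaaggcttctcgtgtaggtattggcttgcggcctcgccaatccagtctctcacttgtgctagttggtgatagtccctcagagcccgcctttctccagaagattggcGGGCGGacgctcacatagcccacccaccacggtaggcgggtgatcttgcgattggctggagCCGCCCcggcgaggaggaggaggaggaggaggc
Rab5c: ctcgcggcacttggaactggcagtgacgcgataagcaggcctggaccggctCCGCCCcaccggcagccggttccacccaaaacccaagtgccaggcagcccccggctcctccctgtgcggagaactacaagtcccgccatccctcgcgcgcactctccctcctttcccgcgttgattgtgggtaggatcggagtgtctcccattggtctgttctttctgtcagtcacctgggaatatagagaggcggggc
The GC content of these windows was 72.4% for Rab1a, 60.8% for Rab1b, 64.0% for Rab5a, 59.2% for Rab5b and 63.2% for Rab5c, against a median of 60.0% over the promoters of member genes and 52.4% over all promoters. GC boxes numbered 3 for Rab1a, 2 for Rab1b, 1 for Rab5a, 2 for Rab5b and 1 for Rab5c. The letters CACGTG (an E-box, the same on both strands) stood 2 times in the window of Rab5a and in none of the other 4. TGACGTCA, the cyclic AMP response element (the same on both strands), stood there 1 time. CCAAT on either strand was found 4 times for Rab5b, 1 time each for Rab1b, Rab5a and Rab5c, and not for Rab1a. Of the member genes with a promoter, 74.7% held GGGCGG, against 35.4% of the 27025 genes in the table, which include many non-coding ones. CACGTG was held by 2 of 10 member genes that rose, 0 of 27 that fell, 11.4% of member genes and 6.86% of all genes. GGGCGG was held by 8 of 10 and 20 of 27, CCAAT by 5 of 10 and 13 of 27, and TATAAA by 0 of 10 and 3 of 27. No difference between genes that rose and fell was tested. These letters describe the windows only.

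The labels and the cells were checked on genes outside the family. Il10 stood at 12.02 and 12.00 on the IL-10+ arrays and at 10.41 and 10.37 on the IL-10− arrays. Probe sets of Cd3e, Cd4, Foxp3 and Il2ra lay above the 94th percentile of all probe sets by level (96.6, 94.7, 97.2 and 99.4) in the order given. Of 5 measured CD4 T cell markers 3 rose (Cd28 0.77, Cd4 0.51 and Cd3g 0.41) and 0 fell. Of 6 regulatory T cell markers Ctla4 rose (0.87), Foxp3 (-0.72) and Ikzf2 (-0.55) fell, and 3 did not pass. All 9 measured markers of B and plasma cells fell in IL-10+ samples, and their summed level was 9.91 to 9.92 there against 12.27 to 12.28 in IL-10− samples. Of 3 measured NK cell markers 2 fell, with summed levels of 7.48 to 7.58 in IL-10+ and 8.22 in both IL-10− samples. Of 8 markers of myeloid and dendritic cells 2 rose and 1 fell, with overlapping sums (9.58 to 9.61 and 9.60 to 9.66). For 4 transcripts spiked into the RNA as controls, the median difference was 1.22 at the 5′ end and 0.04 at the 3′ end. Control probe sets for transcripts of the cells themselves also differed more at the 5′ end, for Gapdh by 0.88 against 0.02 and for beta-actin by 1.12 against 0.40. The part of other cells and of 5′ signal in the results on Rabs and SNAREs was not tested, and fewer cells of a type cannot be told apart from less RNA per cell.

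More member genes fell than rose in IL-10+ cells, as was so over all named genes. Going by the brightest probe set, 30 of 97 fell, 13 rose and 54 did not pass, whereas over all named genes 22.9% fell and 8.37% rose. The median difference was -0.08 on the log2 scale over the members and -0.01 over all genes, with a range among members from -1.03 (Vamp2) to 0.61 (Rab20). Over all 221 member probe sets 49 rose and 50 fell, against 13.6% higher and 16.2% lower of all probe sets (29.8% either way). That split was 48 and 43 after quantile normalization, 40 and 69 after median centring, 30 and 28 without IL-10+ replicate 1, and 30 and 31 without IL-10+ replicate 2. Dimmer probe sets leaned upwards, with 36 of 124 member ones higher and 20 lower, where 20% and 13.4% of the dimmer probe sets of all genes were called. Calls depended on level: of the 33 member genes with a mean of 9 or more, 36.4% fell and 12.1% rose, against 45.5% and 14.7% of all 3530 genes at that level. Of the 51 between the median of all probe sets and 9, 35.3% fell and 17.6% rose, against 32.0% and 10.5% of 7510. Of the 84 member genes at or above that median, 35.7% fell and 15.5% rose, against 36.3% and 11.9% of all 11040 such genes. Of the 13 member genes below that median, which include Snap25, Snap91, Rab3c and Rab17, limma called 0 (1, Rab40b, at an unadjusted p under 0.05). The split was 17 higher and 25 lower after quantile normalization, 10 and 40 after median centring, and 23 and 23 with the mean over all probe sets of a gene. Without IL-10+ replicate 1 it was 5 and 18, and without IL-10+ replicate 2 it was 6 and 19. Without regard to the test, both IL-10+ values lay above both IL-10− values in 27 member genes and below them in 49, against 26.6% and 37.8% of all genes, and in 78 and 87 member probe sets, against 32.5% and 30.5% of all. Of the calls on brightest probe sets, 4 upward and 12 downward ones held under all alternatives run.

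**Figure D1:**
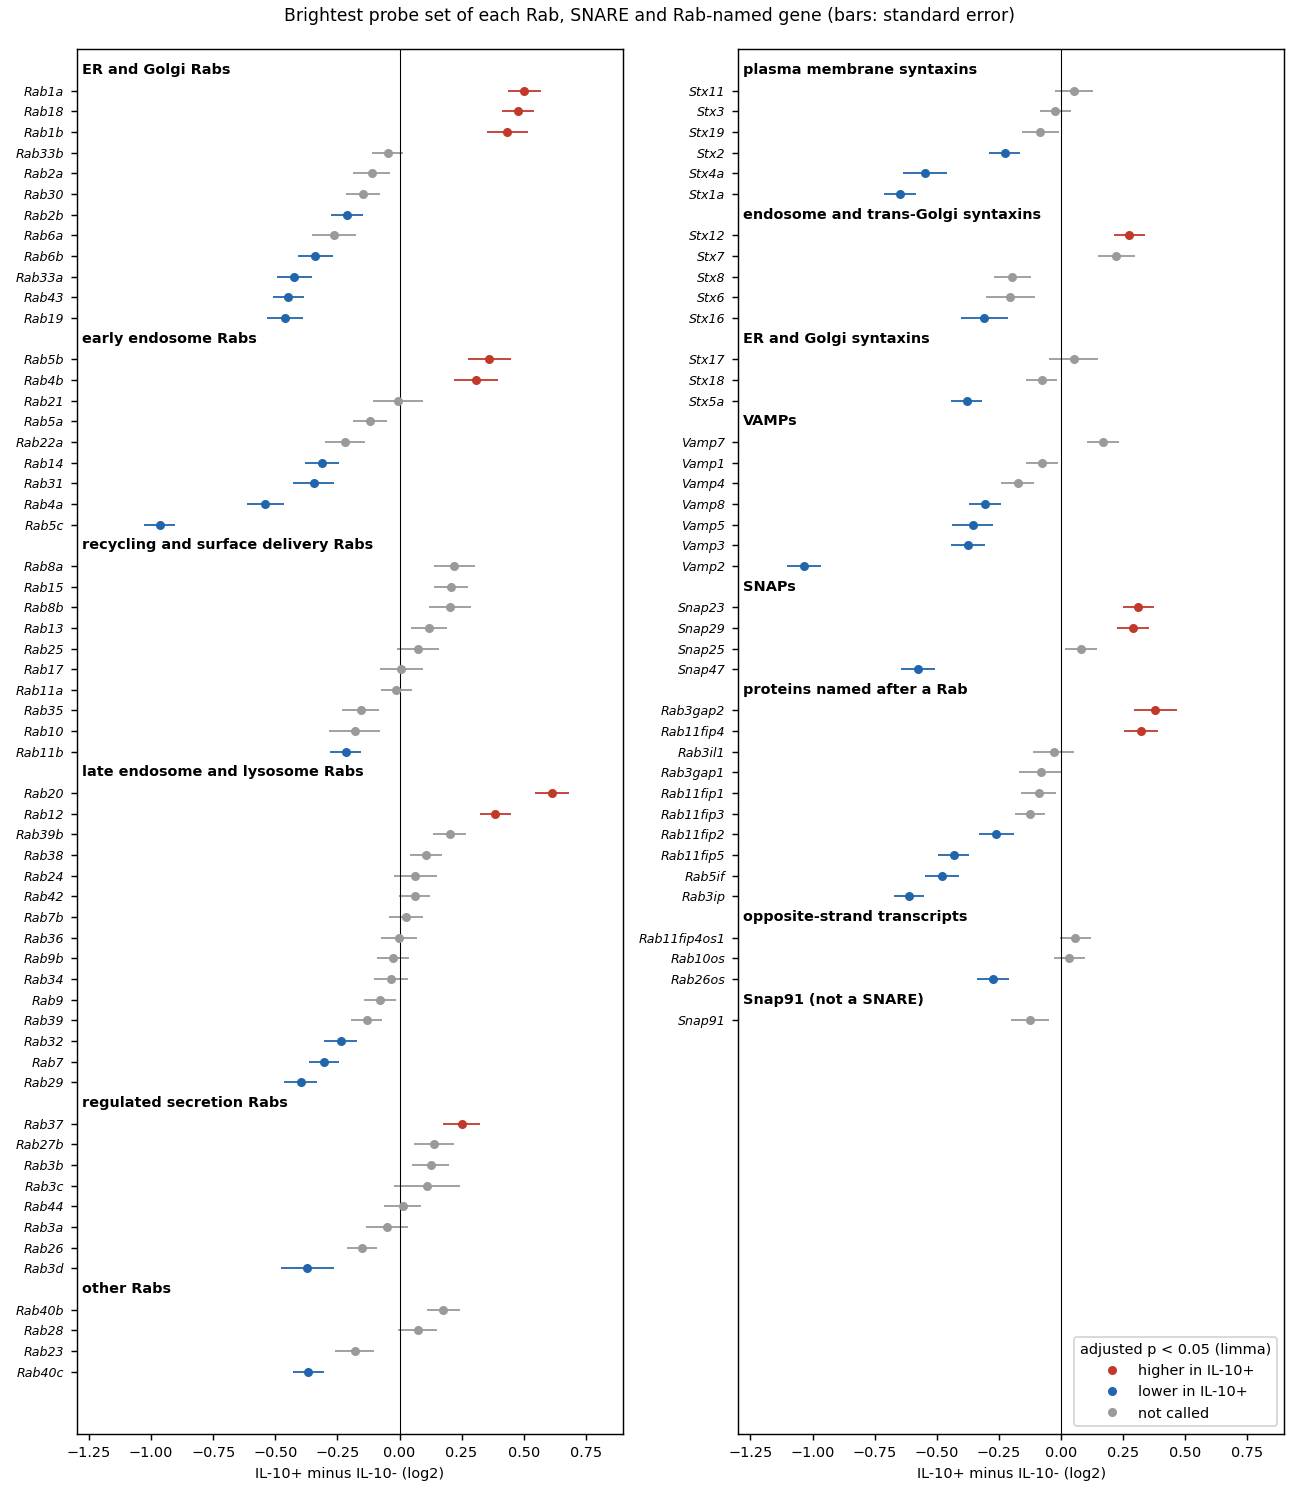
Horizontal axis: log2 difference, IL-10+ minus IL-10−, of the brightest probe set for each of the 97 member genes, grouped by role, with standard errors from limma as bars. Red points rose, blue points fell and grey points did not pass an adjusted p of 0.05; Vamp2 (-1.03) and Rab5c (-0.97) lie farthest left and Rab20 (0.61) farthest right.

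**Figure D2:**
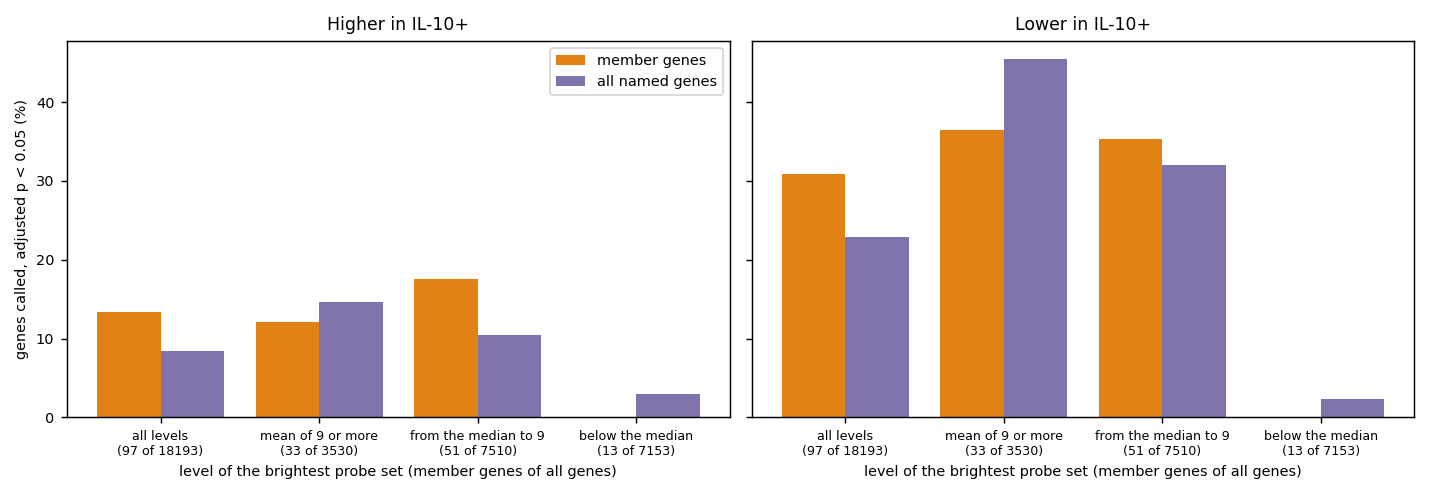
Share of genes called higher (left) and lower (right) in IL-10+ cells (percent, vertical axis), for member genes and for all named genes, over all levels and in 3 classes of level. In the class with a mean of 9 or more, 36.4% of member genes and 45.5% of all genes fell.

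Among Rabs of the ER and Golgi, the isoforms of Rab1 and Rab18 were higher in IL-10+ cells and 5 others lower. Rab1a and its close paralog Rab1b drive transport from the ER to the Golgi. Rab1a stood at 12.82 and 12.80 on the IL-10+ arrays and at 12.26 and 12.35 on the IL-10− arrays, a difference of 0.50 (standard error 0.07, adjusted p = 0.00099). Its second probe set rose by 0.48, and its dimmest differed by 0.22 without passing. Rab1b had 9.62 and 9.50 in IL-10+ against 9.22 and 9.03 in IL-10− samples (0.43, adjusted p = 0.0061). The groups did not overlap for either gene. Rab18, a Rab of the ER and of lipid droplets, went from 9.94 and 9.995 to 10.44 and 10.45 (0.48, adjusted p = 0.00105). Its dimmer probe set gave the largest difference of the family, from 7.61 and 6.99 in IL-10− to 9.25 and 9.43 in IL-10+ samples, a difference of 2.04 (adjusted p = 0.000165), which is 4.12-fold as log2 and 7.71-fold as natural logarithm. The upward calls of these brightest probe sets held under every alternative run. Rab19, Rab43 and Rab33a fell by 0.46, 0.45 and 0.42, although Rab43 did not pass with the mean over its 3 probe sets (-0.15, adjusted p = 0.0655). The smaller falls of Rab6b (-0.34), a Golgi Rab known best from neurons, and Rab2b (-0.21) were lost without IL-10+ replicate 1 or 2. A dimmer probe set of Rab6b fell by 0.90 (adjusted p = 0.000228). Of the 5 probe sets of Rab2b 2 dimmer ones rose, by up to 0.72 (adjusted p = 0.000714). The mean over all 5 was 0.23 (adjusted p = 0.0135). Rab6a, the general Golgi isoform, differed by -0.26 (adjusted p = 0.0588) and Rab2a, which acts between ER and Golgi, by -0.11. In some alternatives Rab6a passed downwards, among them median centring (-0.34, adjusted p = 0.0104) and the mean over its probe sets (-0.23, adjusted p = 0.0373). In all, 3 of 12 genes of this group rose and 5 fell, beside 8.37% higher and 22.9% lower of all genes. At or above the median level of all probe sets, where all of them but Rab30 lie, 11.9% of all genes rose and 36.3% fell.

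Early endosome Rabs held the largest fall of any Rab, and isoforms of Rab4 and Rab5 went opposite ways. Rab5 directs fusion of incoming vesicles with early endosomes, and Rab4 directs fast return from them to the surface. Rab5c was at 9.27 and 9.26 on the IL-10+ arrays and at 10.22 and 10.24 on the IL-10− arrays. This is a difference of -0.97 (standard error 0.06, adjusted p = 4.47e-05), 1.95-fold as log2 and 2.63-fold as natural logarithm, with both arrays of a group within 0.02 of each other. Rab5b moved the other way in both of its probe sets, from 6.72 and 6.48 to 6.97 and 6.96 in the brightest (0.36, adjusted p = 0.0164) and by 0.50 in the other (adjusted p = 0.000892). The call on the brightest was lost with IL-10+ replicate 1 left out (adjusted p = 0.0695), as with replicate 2 (0.0655). Rab5a had 10.84 and 10.94 against 10.98 and 11.04 and did not pass (-0.12, adjusted p = 0.261). Rab4a fell in both probe sets, by 0.54 and 0.27, the brightest going from 8.35 and 8.44 to 7.92 and 7.79 (adjusted p = 0.00127). Rab4b, with 9.45 and 9.48 against 9.28 and 9.03, rose by 0.31 (adjusted p = 0.0367), a call that median centring and leaving out either IL-10+ array or IL-10− replicate 4 removed. The difference in change between isoforms was not tested. Rab31 (-0.35) and Rab14 (-0.31), which act between the Golgi and endosomes, also fell by their brightest probe sets, and Rab21 (adjusted p = 0.983) and Rab22a (-0.22) did not pass. The dimmer probe set of Rab31 rose by 0.48. Of 7 probe sets of Rab14 2 fell and 1 rose, by 0.30. Among the 4 of Rab22a 2 dimmer ones fell, by up to 0.67, and 1 rose by 0.34. The fall of Rab31 was lost without either IL-10+ array, and that of Rab14 without IL-10+ replicate 2 and after quantile normalization. Thus 2 of 9 genes rose and 4 fell, where 8.37% of all genes rose and 22.9% fell. At or above the median level of all probe sets, where all 9 lie, 11.9% of all genes rose and 36.3% fell.

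Rabs of recycling and delivery to the surface mostly did not pass by their brightest probe sets. Of 10 genes, 0 rose and 1 fell in limma (8.37% and 22.9% of all genes), and 3 were higher at an unadjusted p under 0.05. Rab11a, the main Rab of recycling endosomes, stood at 12.05 and 12.12 in IL-10+ against 12.09 and 12.10 in IL-10− samples (-0.01, adjusted p = 0.923), and the groups overlapped. Its second probe set, from 8.28 and 8.39 to 8.89 and 8.88, rose by 0.55 (adjusted p = 0.000801). Rab11b fell in all 3 probe sets, by 0.22, 0.96 and 0.38. Its second probe set had 7.51 and 7.48 in IL-10+ and 8.35 and 8.56 in IL-10− samples (adjusted p = 0.000154). The fall of the brightest did not pass after quantile normalization (-0.11, adjusted p = 0.235) or without either IL-10+ array or IL-10− replicate 4. Rab8a and Rab8b, which bring cargo to the plasma membrane, were at 10.05 and 10.06 against 9.94 and 9.72, and at 11.48 and 11.56 against 11.21 and 11.42. Neither passed (0.22 and 0.20, adjusted p = 0.092 and 0.117), and both passed upwards after quantile normalization (0.33 and 0.36). Rab35, a Rab of endocytic recycling at the immune synapse, differed by -0.16 (adjusted p = 0.173). Rab10 differed by -0.18 in the brightest and rose by 0.86 in the dimmest.

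Of 15 Rabs of late endosomes, lysosomes and related organelles, 2 rose and 3 fell, against 8.37% and 22.9% of all genes. Rab20, a Rab of endosomes and phagosomes, was the largest rise among brightest probe sets, from 7.53 and 7.52 on the IL-10− arrays to 8.08 and 8.21 on the IL-10+ arrays (0.61, standard error 0.07, adjusted p = 0.000538). Rab12, which acts in the degradation of the transferrin receptor, rose by 0.39, and its dimmer probe set fell by 0.28. The mean of both was 0.053 (adjusted p = 0.517). Rab7, the Rab that makes late endosomes fuse with lysosomes, was read by 2 probe sets that disagreed. The brighter one had 11.04 and 11.03 in IL-10+ and 11.35 and 11.32 in IL-10− samples (-0.30, adjusted p = 0.00792), and the other 10.07 and 10.31 against 9.74 and 9.63 (0.50, adjusted p = 0.00503). The fall was lost after quantile normalization (-0.15, adjusted p = 0.135) and without either IL-10+ array. Rab29, linked to the trans-Golgi and to lysosome stress, fell by 0.40 and Rab32, a Rab of lysosome-related organelles, by 0.24, the latter lost without either IL-10+ array or IL-10− replicate 4. Rab9, which acts in return from late endosomes to the Golgi (-0.08), Rab24 (0.06) and Rab39b (0.20) did not pass.

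Rabs of regulated secretion mostly did not pass. Several were dim, with means over the 4 arrays of 6.45 (Rab27b), 6.51 (Rab3b), 6.68 (Rab3d), 6.08 (Rab44) and 5.87 (Rab3c). Rab26, Rab37 and Rab3a lay higher, at 7.73, 7.75 and 8.77. The median of all probe sets was 6.37, and below it 2.98% of all genes rose and 2.29% fell. A missing call at such levels does not show that a gene was unchanged. Rab27b, a paralog of the granule Rab that the choice left out, had 6.59 and 6.46 against 6.46 and 6.31 (0.14, adjusted p = 0.264), and none of its 4 probe sets passed. Rab37, known from secretory granules, rose in the brighter of its probe sets (7.81 and 7.94 against 7.67 and 7.57, 0.25, adjusted p = 0.04) and fell in the dimmer one (7.19 and 7.23 against 7.78 and 7.94, -0.65, adjusted p = 0.000513). The rise was lost after median centring (0.17, adjusted p = 0.113), without either IL-10+ array and without IL-10− replicate 4. Rab3d, a Rab of exocrine and mast cell granules, fell by 0.37 (adjusted p = 0.0327, not without IL-10+ replicate 2 or IL-10− replicate 4). Rab3a, the Rab of synaptic vesicles, differed by -0.05, and Rab3b, Rab3c, Rab26 and Rab44 did not pass. Of these 8 genes 1 rose and 1 fell, against 8.37% and 22.9% of all genes. Among 4 further Rabs, Rab40c, part of a ubiquitin ligase, fell by 0.37 in the brighter probe set and rose by 1.01 in the dimmer one, from 6.20 and 5.88 to 7.11 and 6.99 (adjusted p = 0.000366). Rab28 (0.07), Rab23 (-0.18) and Rab40b (0.18) did not pass, although dimmer probe sets of Rab28 (0.68) and Rab23 (0.30) rose.

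**Figure D3:**
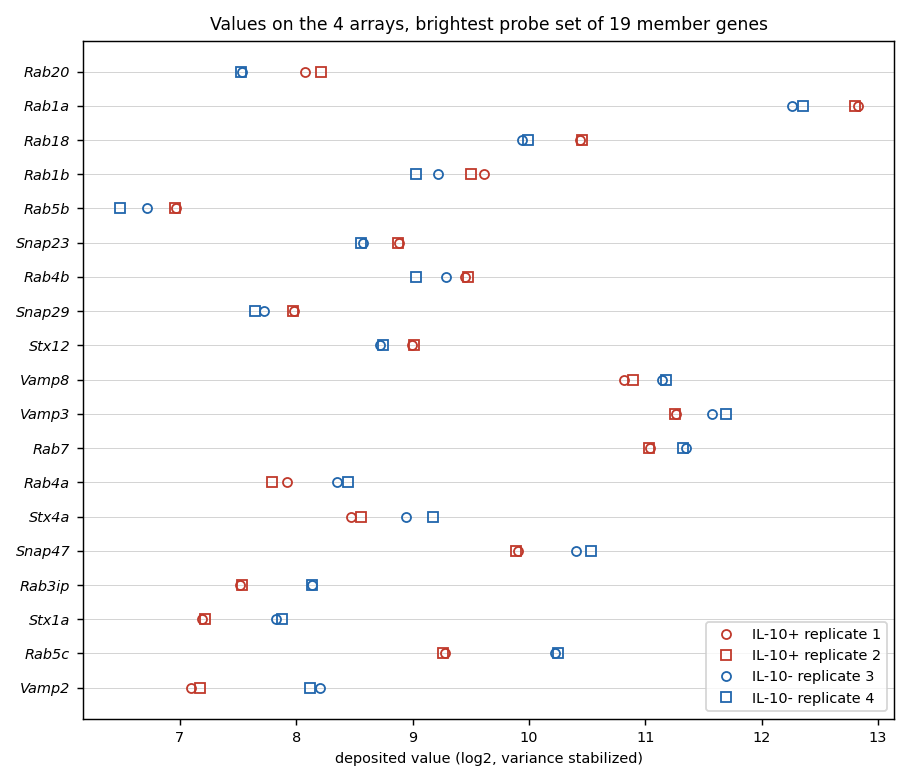
Deposited values (log2, horizontal axis) of the brightest probe set of 19 member genes on the 4 arrays, IL-10+ in red and IL-10− in blue, circles and squares marking the 2 arrays of a group. All 19 passed the test and 9 were named for groups that do not overlap, so that the gap is no finding (of all genes, 26.6% lie apart upwards and 37.8% downwards). Group means differ by 0.97 for Rab5c and 1.03 for Vamp2.

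Among SNAREs, 4 of 7 VAMPs fell and 3 did not pass by brightest probe sets in limma. Of all genes 22.9% fell. Of those at or above the median level of all probe sets, where all 7 VAMPs lie, 36.3% fell. Vamp7 was higher at an unadjusted p under 0.05. Over all 17 VAMP probe sets 4 rose and 4 fell. Vamp2, the VAMP of regulated exocytosis in neurons and also present in T-cells, was at 7.09 and 7.17 on the IL-10+ arrays and at 8.21 and 8.12 on the IL-10− arrays. The difference of -1.03 (standard error 0.07, adjusted p = 5.2e-05) is 2.05-fold as log2 and 2.81-fold as natural logarithm, and was the largest fall of the family. Its other probe set, of 7.18 and 7.17 against 7.31 and 7.11, did not pass (-0.03, adjusted p = 0.834). Vamp8, a VAMP of late endosomes and of granule release, fell from 11.14 and 11.18 to 10.82 and 10.89 (-0.31, adjusted p = 0.00984). With IL-10+ replicate 1 left out it differed by -0.27 (adjusted p = 0.0984), and quantile normalization gave -0.17 (adjusted p = 0.0704). Vamp5 fell by 0.36, which was lost without IL-10+ replicate 1. Vamp7, a VAMP of late endosomes and lysosomes, had 8.93 and 8.96 against 8.73 and 8.81 (0.17, adjusted p = 0.0928), and its dimmer probe set rose by 0.54. Vamp4, a trans-Golgi VAMP, differed by -0.17 (adjusted p = 0.0908).

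Vamp3, the VAMP of recycling endosomes, showed the widest disagreement between probe sets of 1 gene. Its brightest went from 11.57 and 11.69 on the IL-10− arrays to 11.27 and 11.25 on the IL-10+ arrays (-0.37, adjusted p = 0.00492). Another probe set went the other way, from 10.32 and 10.24 to 10.85 and 10.86 (0.58, adjusted p = 0.000505), and a dimmer one from 7.95 and 7.98 to 9.24 and 9.34 (1.33, adjusted p = 2.08e-05). The brightest carries the suffix x, which marks probe sets that can match several genes. Without such probe sets Vamp3 rose by 0.58, and with the mean over all 5 probe sets by 0.26 (adjusted p = 0.00644). No direction is thus given for the gene, which is 1 of the 4 VAMPs counted as lower.

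Syntaxins of the plasma membrane fell or did not pass, in 3 and 3 of 6 genes. Of all genes 22.9% fell, and 36.3% of those at or above the median level of all probe sets. Stx4a encodes syntaxin 4, the general plasma membrane syntaxin, and was at 8.47 and 8.56 on the IL-10+ arrays against 8.95 and 9.17 on the IL-10− arrays (-0.55, standard error 0.09, adjusted p = 0.00271). Stx1a, best known from synapses, fell in both probe sets, by 0.65 and 0.34, the brightest from 7.83 and 7.88 to 7.19 and 7.22. Stx2 fell by 0.23, which was lost without either IL-10+ array. Stx11, the syntaxin that lymphocytes need to release lytic granules, had 11.67 and 11.67 in IL-10+ and 11.53 and 11.71 in IL-10− samples and did not pass (0.05, adjusted p = 0.689), nor did its dimmer probe set (-0.16). Stx3 differed by -0.02, and none of its 4 probe sets passed.

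Of 5 syntaxins of endosomes and the trans-Golgi 1 rose and 1 fell, against 8.37% and 22.9% of all genes. Stx12, of recycling endosomes, rose from 8.72 and 8.74 to 8.998 and 9.01 (0.28, adjusted p = 0.0123), and its dimmer probe set fell by 0.40. The rise was lost after median centring (0.20, adjusted p = 0.0509) and without either IL-10+ array. Stx16, of the trans-Golgi, fell by 0.31 (adjusted p = 0.0437, lost without IL-10+ replicate 1 or IL-10− replicate 4 and after quantile normalization). Stx7, of late endosomes, had 9.33 and 9.39 against 9.06 and 9.20 (0.22, adjusted p = 0.0557), and quantile normalization made it pass upwards (0.31, adjusted p = 0.0084). Stx8 differed by -0.20 (adjusted p = 0.0941), and median centring made it pass downwards (-0.27, adjusted p = 0.0251). Stx6, a trans-Golgi syntaxin, differed by -0.20 in the brightest of 6 probe sets, which carries the suffix x, whereas 3 dimmer ones rose by 0.31, 0.93 and 0.58. Stx5a, the syntaxin of ER to Golgi transport, fell by 0.38 (adjusted p = 0.00276) in a probe set with the suffix s, and its other probe set differed by 0.21 (adjusted p = 0.078). Stx18, of the ER, differed by -0.08 in the brightest and rose in the other 4 of its 5 probe sets, by 0.23 to 0.48, and 3 of the 5 carry the suffix x.

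Of the 4 SNAP-25-like genes Snap23 and Snap29 rose and Snap47 fell, beside 8.37% higher and 22.9% lower of all genes. Snap23, the SNAP of most cells outside the nervous system, was at 8.88 and 8.87 on the IL-10+ arrays against 8.58 and 8.55 on the IL-10− arrays (0.31, adjusted p = 0.00688), and its second probe set rose by 0.85, from 7.60 and 7.56 to 8.37 and 8.48 (adjusted p = 0.000118). Snap29, which acts on endosomes and in autophagy, rose in all 3 probe sets, by 0.29, 0.43 and 0.34. Without IL-10+ replicate 1 the brightest of Snap23 and of Snap29 no longer passed (adjusted p = 0.0578 and 0.0827), nor did they without replicate 2 (0.0539 and 0.0772). Snap47 fell in both probe sets, from 10.40 and 10.53 to 9.90 and 9.88 in the brightest (-0.57, adjusted p = 0.00069) and by 0.32 in the other. Snap25, the neuronal SNAP, was at 5.31 and 5.38 against 5.27 and 5.26, below the median of all probe sets (6.37), and did not pass.

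Probe sets of 1 gene were called in both directions for 13 of the 67 member genes that have several (19.4%), against 12% of 9010 such genes over the whole array. They are Vamp3, Rab40c, Rab22a, Rab2b, Rab37, Rab14, Rab43, Rab31, Rab7, Stx12, Rab12, Rab2a and the Rab11 partner Rab11fip2. In 21 genes a dimmer probe set rose where the brightest did not, and in 8 a dimmer one fell where the brightest did not. Among genes whose probe sets all went the same way, 3 rose in all of them and 6 fell in all of them. Such counts are not given here for all genes. Over all genes, 20% of dimmer probe sets were higher and 13.4% lower, against 8.37% and 22.9% of brightest ones. The lean of dimmer probe sets is thus no trait of the members. At the limit that the methods name, read as a difference of at least 1 on the log2 scale with an adjusted p under 0.001, 3 member probe sets were higher (1.72% of all probe sets) and 1 lower (0.575%). The higher ones were the dimmer probe sets of Rab18, Vamp3 and Rab40c, and the lower one was the brightest of Vamp2. Without IL-10+ replicate 1, 0 member probe sets passed this limit downwards in limma, and 3 did after median centring. Without IL-10− replicate 3, 5 passed it upwards. Read as natural logarithms, the limit of the methods is a difference of 0.69, and 6 member probe sets passed it upwards (3.37% of all) and 4 downwards (2.19%), among the latter the brightest of Rab5c. On the same arrays the middle probe sets of the 4 spiked controls differed by 0.82 (median).

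**Figure D4:**
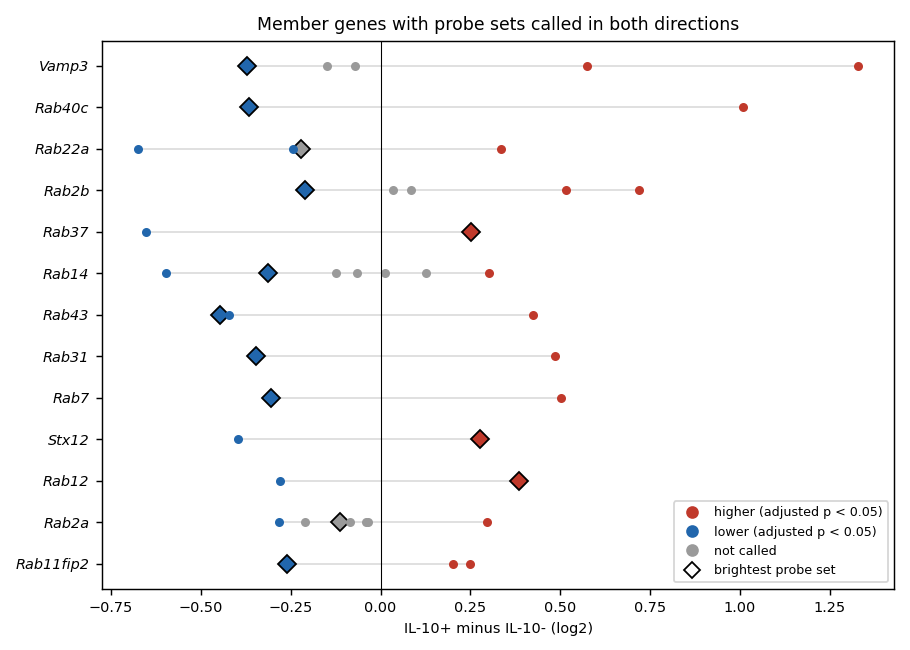
Every probe set of the 13 member genes with calls in both directions, ordered by spread, at its log2 difference (IL-10+ minus IL-10−, horizontal axis), the brightest as diamonds. For Vamp3 the brightest sits at -0.37 and a dimmer one at 1.33.

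**Figure D5:**
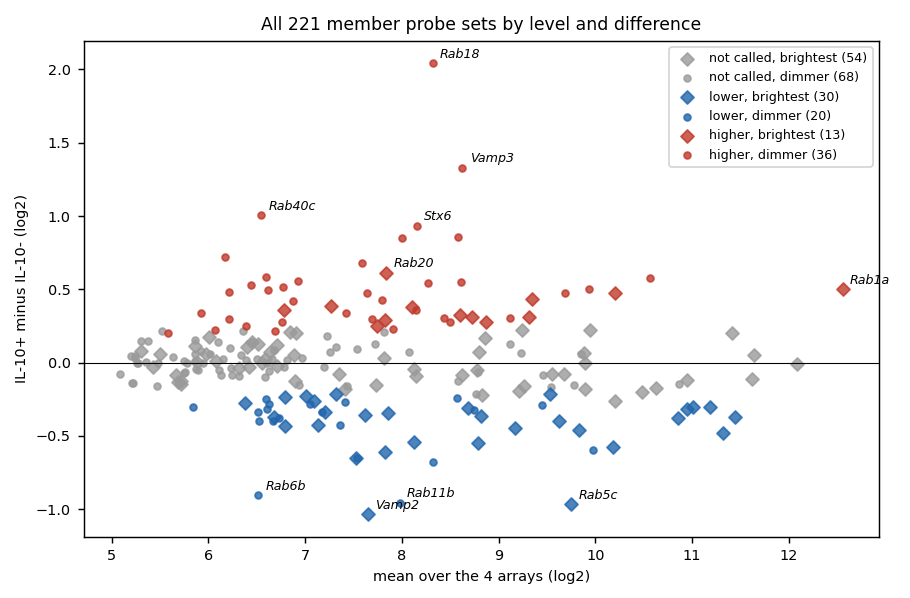
All 221 member probe sets by mean over the 4 arrays (log2, horizontal axis) and difference between IL-10+ and IL-10− arrays (log2, vertical axis), brightest as diamonds and dimmer ones as circles, coloured by call. The points above 1 (Rab18, Vamp3 and Rab40c) are dimmer probe sets.

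The genes named after a Rab split as well. Of 10, 2 rose and 4 fell, against 8.37% and 22.9% of all genes. At or above the median level of all probe sets, where all 10 lie, 11.9% of all genes rose and 36.3% fell. Rab3ip, also called Rabin8, is an exchange factor of Rab8. It had 7.52 and 7.53 in IL-10+ against 8.13 and 8.14 in IL-10− samples (-0.61, adjusted p = 0.000299), and its other probe set fell by 0.40. Among the Rab11 effectors of the FIP family, Rab11fip5 fell in both probe sets, by 0.43 and 0.30, and Rab11fip4 rose by 0.32 (lost without IL-10+ replicate 1), with a further probe set at 0.55. Rab11fip2 fell by 0.26 in its brightest probe set (lost without either IL-10+ array or IL-10− replicate 4), and its 2 dimmer ones rose. Rab11fip1 (-0.09) and Rab11fip3 (-0.12) did not pass. Rab3gap2, a subunit of a Rab exchange and GAP complex, rose by 0.38 (lost without either IL-10+ array), and its partner Rab3gap1 differed by -0.08. Rab5if fell by 0.48. Of the opposite-strand transcripts, Rab26os fell by 0.27 (lost without either IL-10+ array), and the brightest probe sets of Rab10os (0.03) and Rab11fip4os1 (0.06) did not pass. Snap91 differed by -0.12.

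Other genes of the pathway were taken from 7 lists with 157 genes, of which 147 were measured. Their brightest probe sets rose for 16 (10.9%) and fell for 53 (36.1%), against 8.37% and 22.9% of all genes. Of the 11040 genes at or above the median level 36.3% fell and 11.9% rose. Among the 42 pathway genes with a mean of 9 or more 42.9% fell (45.5% of all genes there), and among the 89 from the median to 9 38.2% fell (32% of all genes there). Of 23 exchange factors 11 fell and 2 rose, with the largest falls in Madd, an exchange factor of Rab3 and Rab27 (-0.67), Rgp1, of Rab6 (-0.59), and Dennd4a (-0.47), and rises in Rabgef1, of Rab5 (0.23), and Mon1b, of Rab7 (0.23). Of 29 GAPs 14 fell and 1 rose, with Tbc1d9b (-1.03), Tbc1d10b (-0.82) and Evi5 (-0.73) lowest and Rabgap1l at 0.26. Of 24 effectors 4 rose and 9 fell. The dynein adaptor Bicd2, which binds Rab6, rose by 0.87, Eea1, the tether of Rab5 on early endosomes, by 0.84, and the recycling protein Ehd1 by 0.48, whereas Mical1 (-0.83), Gcc2 (-0.48) and Hps4 (-0.48) fell. Gdi2, the carrier of GDP-bound Rabs in the cytosol, fell by 0.41 and was the 1 call among 7 carriers and prenylation genes. The probe sets read for Gdi2 and Mical1 carry the suffix x. Neither dimmer probe sets nor alternatives are given here for the pathway genes.

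Fusion partners of the SNAREs also moved both ways, where 8.37% of all genes rose and 22.9% fell. Among regulators and disassembly factors 3 of 24 rose and 6 fell. Sytl2, a synaptotagmin-like protein that docks granules (0.82), Vps33b (0.64) and Scfd1, the partner of syntaxin 5 (0.39), were higher. Syt11 (-1.03), Unc13d, which encodes the granule priming factor Munc13-4 (-0.66), and Sytl1 (-0.33) were lower. Of the other SNAREs Vti1b (0.26) and Gosr1 (0.25) rose, and 4 of 12 fell, among them Sec22c (-0.55), Vti1a (-0.31) and Bet1l (-0.27). Of 28 tethering genes 4 rose and 8 fell. The rises were largest in Vps51, of the GARP complex (0.84), the exocyst subunit Exoc8 (0.46) and Vps18 (0.26), and the falls in Vps52 (-0.80), a partner of Vps51 in GARP, Tgfbrap1 (-0.67) and Vps16 (-0.61). The 2 GARP subunits thus differed in direction by their brightest probe sets.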

How the data were processed

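RNA of 4 samples (100 ng each per the labels, where the methods of the study give a larger amount) was hybridised to Affymetrix mouse genome arrays, 1 per sample. The authors deposited 1 value per probe set after variance stabilization across the arrays, read here as log2. Neither the file nor the methods name the base of the deposited values, while legends of the study give array differences as natural logarithms, so the base stays unknown. Values reached 14.42, above the natural logarithm of a 16-bit scanner range (11.1). Over all probe sets the largest rise is 20.5-fold as log2 and 78.2-fold as natural logarithm, and the largest fall 44.2-fold and 237-fold. The maximal fold named in the methods of the study lies near the natural-logarithm reading of the rise and far below that of the fall. How probes were summarised is not given in the sources used here. Variance stabilization compresses differences of dim probe sets, so folds of these are lower than on a plain log2 scale. Groups were taken from the labels.

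From 45101 probe sets, 64 controls were set aside. Symbols came from the platform annotation, which gave 1 symbol for 34945 probe sets, several for 932 and no entry for 9160. Differences were tested with lmFit and eBayes of limma 3.58.1 in R 4.3.3, with Benjamini-Hochberg adjustment over all 45037 probe sets, and the steps were tested on simulated data. Figures and promoter windows were made in Python 3.11.15 with pandas 2.3.3 and matplotlib 3.10.9. With 2 against 2 samples an exact two-sided permutation test cannot go below p = 0.333, so p-values rest on limma, whose fit had 2 residual and 5.44 prior degrees of freedom. Arrays have no read depth, and their number limits the precision.

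Members, lists of pathway genes and lists of cell type markers (CD4 T cells, regulatory T cells, CD8 T cells, B and plasma cells, NK cells, myeloid and dendritic cells) were chosen with earlier results of these data known. Of these lists, CD4 T cell markers had 3 of 5 measured genes higher and 0 lower in limma (5 of 5 with IL-10+ above IL-10−), regulatory T cell markers 1 of 6 higher and 2 lower, and CD8 T cell markers 1 of 2 lower. Genes were named where the brightest probe set passed, did not overlap between groups and differed by at least 0.5, where probe sets of 1 gene were called both ways (up to 10 genes), as the brightest of a role, from a set of 24 Rabs and SNAREs whatever their change, and as up to 3 called genes per direction of each pathway list. Other genes named in the text, among them Rab18, Rab1b, Rab4b and Rab12, were chosen after their values were seen. The alternatives changed the scaling (quantile normalization or median centring), dropped dim probe sets, or used other priors of eBayes, an adjusted p under 0.01, the mean over all probe sets of a gene, leaving out probe sets with the suffix x or s, leaving out members that are neither Rab GTPase nor SNARE, leaving out each array and, chosen after seeing the data, a fit over the brightest probe sets alone and a reading of the values as natural logarithms.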

Additional observations from a re-analysis of the deposited data

Results flagged for a closer look

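The 5′ probe sets of the 4 control transcripts added to the RNA, which take no part in the comparison of genes, were higher on the IL-10+ than on the IL-10− arrays by a median of 1.22 on the log2 scale, with a range from 0.68 to 2.16. Their 3′ probe sets differed by 0.04, from -0.22 to 0.17. Their part in the differences of Rab and SNARE probe sets was not tested.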

How the results depend on the processing

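With an adjusted p under 0.01, 7 member genes were higher and 19 lower, and 32 and 31 member probe sets. With the mean over all probe sets of a gene, 23 genes were higher. After median centring 3 member probe sets passed the limit of the methods downwards. With values read as natural logarithms, chosen after seeing the data, 6 passed it upwards and 4 downwards. With each array left out in turn, 5 to 17 genes were higher and 18 to 34 lower, 30 to 54 probe sets were higher and 28 to 54 lower, and 2 to 5 probe sets passed the limit of the methods upwards and 0 to 1 downwards. An array left out leaves a lone sample that is assumed to vary like the other group. Without the 14 members that are neither Rab GTPase nor SNARE, 11 of 83 genes were higher and 25 lower. In the fit over brightest probe sets alone, chosen after seeing the data, 16 were higher and 31 lower. The mean over all probe sets turned the sign of Rab7 (0.10), Rab31 (0.069), Rab40c (0.32), Stx18 (0.25), Rab11fip1 (0.22), Vamp3 (0.26), Stx12 (-0.060), Rab11a (0.27), Rab37 (-0.20), Rab2b (0.23), Rab10 (0.25), Rab11fip2 (0.064) and Stx6 (0.26), since it adds probe sets of the other sign. Without suffix x or s the sign turned for Stx18 (0.23), Vamp3 (0.58), Stx5a (0.21) and Rab6b (0.028), each read there by another probe set. The cause of the other changes was not tested. No paired analysis was possible because the groups share no replicate numbers.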
